A study of Homo sapiens with 5 samples.

Results

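A set of 10 genes whose products set how phagocytes, complement and other immune cells treat a tumor cell were followed in human SW480 cells recovered from zebrafish xenografts. They were chosen by symbol: CD46, CD55 and CD59, CD47 and CD24, CD274 and LGALS9, and ANXA1, LGALS3 and MIF. All 10 were among the 15028 genes that were listed in every library and seen in at least 10 wells.

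SW480 is a long-established line of human colorectal cancer cells. Parental SW480 cells carrying GFP from a lentiviral vector were injected into zebrafish embryos 2 days after fertilization, and tumors were dissected 1 or 4 days post injection (dpi). The groups shared this line and label and differed by design in time after injection, and so in host age. Flow cells were not balanced between them: libraries 6, 7 and 10 were of one and libraries 8 and 11 of the other. The question of the comparison was how the cells still present at 4 dpi differed from those at 1 dpi, when the whole population should still be there. Tumors were combined in a pool of about 100, and live DAPI-negative cells were sorted into 384-well plates for SORT-seq, which counts mRNA molecules per well with unique molecular identifiers (UMIs). There were 3 plates at 1 dpi (libraries 6, 7 and 8) and 2 at 4 dpi (libraries 10 and 11). Plates of a time point may come from the same pool, so the p-values measure the spread between plates, which may be technical. At this age the host has innate immune cells and complement but no mature adaptive immunity, so partners of the human ligands are zebrafish proteins and were not measured.

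Macrophages weigh signals that invite engulfment against signals that stop it. CD47 engages SIRPα and CD24 engages Siglec-10, and both restrain phagocytosis. CD46, CD55 and CD59 keep complement from building up on the cell's own membrane at successive steps: CD55 dissociates the convertases, CD46 helps factor I cleave bound C3b and C4b, and CD59 blocks the membrane attack complex. CD274 (PD-L1) and galectin-9 (LGALS9) are ligands of inhibitory receptors on lymphocytes, while annexin A1, galectin-3 and MIF are released proteins that act on leukocyte migration and activation.

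A minimum of 2000 genes per cell and a mitochondrial share under 25% left 826 cells of 1920 wells, 533 of them at 1 dpi and the others at 4 dpi. They held between 3789632 and 7503665 UMIs per library, with a median per cell of 25938 to 36197 at 1 dpi and of 26120 and 18823 at 4 dpi. Of the UMIs of a member in all wells, 90.9% to 97.2% lay in these cells. Summed colorectal epithelial markers reached 4813 to 5926 CPM (counts per library UMI total, here without TMM), with EPCAM and KRT8 abundant, whereas KRT20 had 0 to 6 UMIs and CDX1 0 or 1 in a library. Summed leukocyte markers were at 22.6 to 34.8 CPM at 1 dpi and at 10.6 and 15.8 CPM at 4 dpi. TYROBP, AIF1, MPO and CD3E were at 0 in all 5 libraries and PTPRC had 0 to 3 UMIs. Of the 14 leukocyte markers, 8 to 10 were detected in a library. ITGAM had 81, 65, 38, 7 and 7 UMIs in libraries 6, 7, 8, 10 and 11. LST1 had 83, 35, 8, 2 and 24 and CD68 28, 28, 10, 9 and 6. The part of these markers in the results was not tested. Columns are numbered by well in every library, so shared cell barcodes could not be counted.

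CD46 and CD59, both regulators of complement, rose between 1 and 4 dpi, and no member fell. Of the 10 genes, 9 had enough UMIs to be tested with edgeR (quasi-likelihood test on UMIs summed per library, Benjamini-Hochberg adjustment over 12610 genes, threshold 0.05). Across all genes tested, 27.6% were called, 13.4% as higher and 14.2% as lower, so 2 of 9 is near the background. All changes are relative to the other genes. Scaling to the ERCC spike-ins in place of TMM shifted the median log2 change of all genes by -0.20. It left 1 gene called in each direction, none of them a member. UMIs per ERCC UMI were 55.9 and 49.5 in libraries 8 and 11 of one flow cell. They were 107.4 to 118.6 in libraries 6, 7 and 10 of the other, and flow cell was not a term in that fit. The part of this difference in the lost calls was not tested. For 3 of the 9 genes (CD46, CD59 and CD274) every 4 dpi library lay outside the 1 dpi range on the same side, as it did for 54.7% of all genes tested. The median log2 change was 0.083 over the 9 genes and 0.0019 over all.

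**Figure D1:**
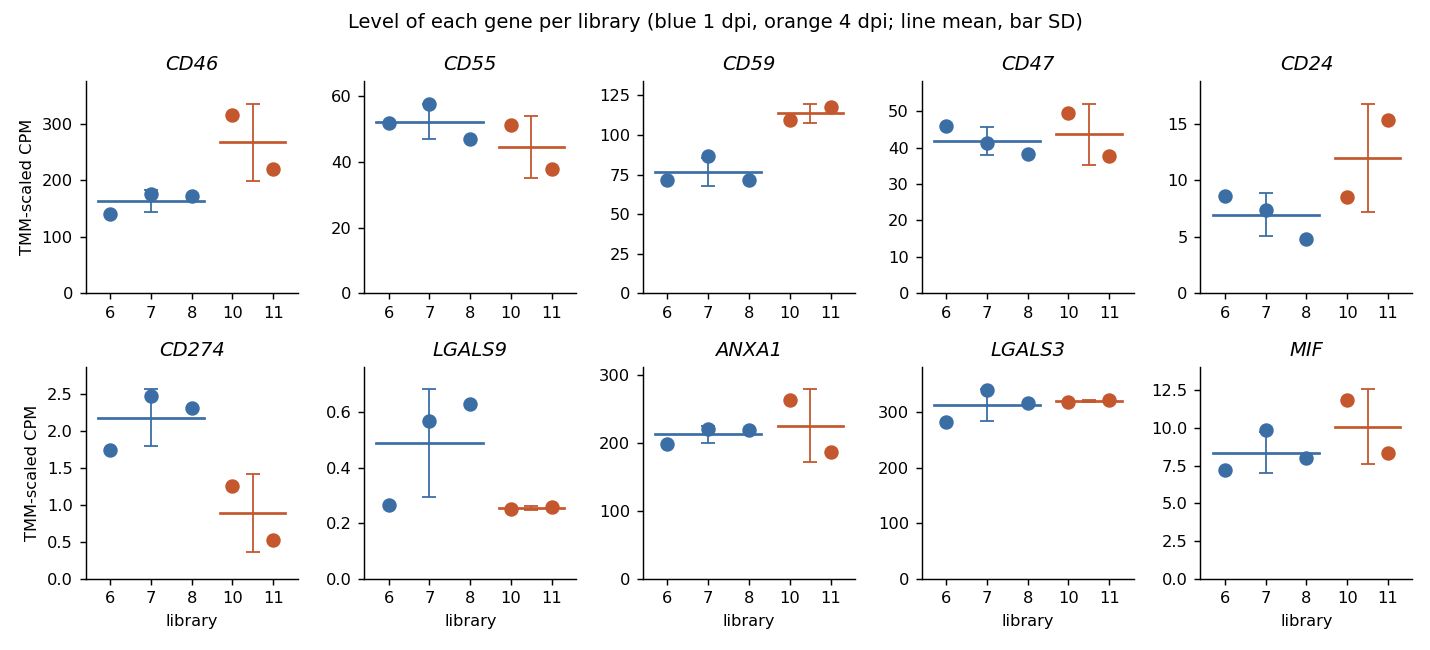
Level of each of the 10 genes (TMM-scaled CPM, linear axis from 0) in libraries 6, 7 and 8 at 1 dpi (blue) and 10 and 11 at 4 dpi (orange), with the mean as a line and the SD as a bar. CD46 and CD59 lie higher in both 4 dpi libraries than in any 1 dpi library, and CD274 lies lower in both.

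The 3 membrane regulators of complement are shown first with the sequence before their start, because they include both members that were called. CD46 (chr1:207752037-207795513, plus strand) and CD55 (chr1:207321519-207386804, plus strand) lie on the same chromosome, and CD59 lies at chr11:33703010-33736479 on the minus strand (GENCODE, hg38). The 250 bases upstream of the first RefSeq start listed for each gene (GRCh38.p14) are given 5′ to 3′. They cover chr1:207751788-207752037 for CD46, chr1:207321428-207321677 for CD55 and chr11:33736480-33736729 for CD59. Capitals mark GGGCGG (GC box) or CCAAT on either strand.
CD46: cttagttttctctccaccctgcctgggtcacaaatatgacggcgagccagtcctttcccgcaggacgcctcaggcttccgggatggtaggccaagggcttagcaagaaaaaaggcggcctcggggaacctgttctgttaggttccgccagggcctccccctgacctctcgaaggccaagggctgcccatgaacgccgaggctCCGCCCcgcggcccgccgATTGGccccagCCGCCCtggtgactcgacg
CD55: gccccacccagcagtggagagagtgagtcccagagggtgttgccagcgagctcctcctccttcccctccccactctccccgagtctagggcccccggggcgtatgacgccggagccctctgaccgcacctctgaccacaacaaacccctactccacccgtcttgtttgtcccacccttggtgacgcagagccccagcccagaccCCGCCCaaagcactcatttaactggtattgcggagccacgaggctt
CD59: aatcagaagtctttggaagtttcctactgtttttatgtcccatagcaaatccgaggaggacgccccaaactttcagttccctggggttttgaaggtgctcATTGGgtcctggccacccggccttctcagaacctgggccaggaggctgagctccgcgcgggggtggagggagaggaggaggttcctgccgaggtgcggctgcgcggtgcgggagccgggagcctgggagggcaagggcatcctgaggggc
The CD46 window held 2 GC boxes and 1 CCAAT, the CD55 window 1 GC box and the CD59 window 1 CCAAT. Over 35116 RefSeq promoter windows of this length, GGGCGG was in 42.6% and CCAAT in 32%. TATAAA (in 10.7% of the windows), TGANTCA (6.57%) and TGACGTCA (1.65%) were not found in these 3 windows on either strand. RefSeq lists further starts for CD46 and CD59, which are not shown. For CD59, the window at chr11:33736424-33736673 held 2 GC boxes and 1 CCAAT, and that at chr11:33722728-33722977 held 2 TGANTCA. The CD55 window overlaps the gene as placed by GENCODE, which starts at chr1:207321519.

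In CPM scaled by TMM, the unit of the levels over all cells from here on, CD46 was at 141.1, 175.98 and 172.6 CPM in libraries 6, 7 and 8 and at 315.8 and 219.4 CPM in libraries 10 and 11. Both 4 dpi libraries were above all 1 dpi libraries, library 10 by more. The mean rose 1.64-fold, from 163.2 ± 19.2 (SD, n = 3) to 267.6 ± 68.2 CPM (n = 2), a log2 change of 0.72 (SE 0.13, edgeR adjusted p = 0.00111). The log2 ratio was 0.99 among the libraries of one flow cell (6 and 7 against 10) and 0.35 in the other (8 against 11), and without library 10 the change was 0.43 (edgeR adjusted p = 0.024). The call was lost with scaling to the ERCC spike-ins (0.62) and among cells outside cluster 2, described below (0.33, edgeR adjusted p = 0.127). Among cells with a mitochondrial share below 15% the change was 0.47 and still called (edgeR adjusted p = 0.0325).

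CD59 was at 71.3, 86.6 and 71.4 CPM at 1 dpi and at 109.2 and 117.9 CPM at 4 dpi. The groups did not overlap, and both 4 dpi libraries were raised to a similar level. The mean rose 1.49-fold, from 76.4 ± 8.78 to 113.6 ± 6.15 CPM, a log2 change of 0.57 (SE 0.12, edgeR adjusted p = 0.00191). The log2 ratio was 0.47 in one flow cell and 0.72 in the other, and the change was 0.51 to 0.68 with any one library left out, each time called. Of the settings tried, scaling to the spike-ins ended the call (0.33).

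CD55 was at 51.8, 57.7 and 47.04 CPM at 1 dpi and at 51.1 and 37.7 CPM at 4 dpi, with library 10 inside the 1 dpi range. Its log2 change was -0.23 (SE 0.15, edgeR adjusted p = 0.253), which did not pass the test. It was -0.034 without library 11 and -0.47 without library 10. With each cell given the same weight it was -0.44, which passed (limma, adjusted p = 0.0235). The share of cells with a CD55 UMI was 54.9% ± 3.25 at 1 dpi and 39.8% ± 2.67 at 4 dpi, and the libraries did not overlap. An exact two-sided permutation test over the 5 libraries gave p = 0.1, the smallest the 10 possible splits allow. At this full depth the shares of CD274, ANXA1, LGALS9 and LGALS3 were also without overlap and lower at 4 dpi. The share of all genes without overlap at full depth was not computed.

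The share of cells with a UMI depends on depth, so each cell was also thinned to 5000 UMIs and shallower cells were left out. For CD59 the libraries then stood further apart: 29.6%, 27.9% and 27.5% of cells at 1 dpi and 41.5% and 42.1% at 4 dpi (exact permutation p = 0.1), while without thinning the mean shares were 72.6% and 78.8%. For CD55 the mean thinned shares were 21.3% at 1 dpi and 14.1% at 4 dpi (exact permutation p = 0.2). Library 8 at 16.88% and library 10 at 16.15% were close. For CD46 the share was 89.5% and 86% at full depth and 49.4% and 56.7% after thinning, so its order turned with depth. The order also turned for LGALS3 (95.4% and 94.2% at full depth) and MIF (22.6% and 20.4%), both higher at 4 dpi after thinning. For MIF the thinned shares rest on 2, 5 and 2 cells at 1 dpi and 9 and 7 at 4 dpi, and for CD274 on 2, 4 and 3 cells and then 1 and 0. After thinning, the shares at 4 dpi and 1 dpi were without overlap for 5 of the 10 genes (higher at 4 dpi for CD59, LGALS3 and MIF, lower for CD55 and CD274), against 37.7% of all genes tested.

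**Figure D2:**
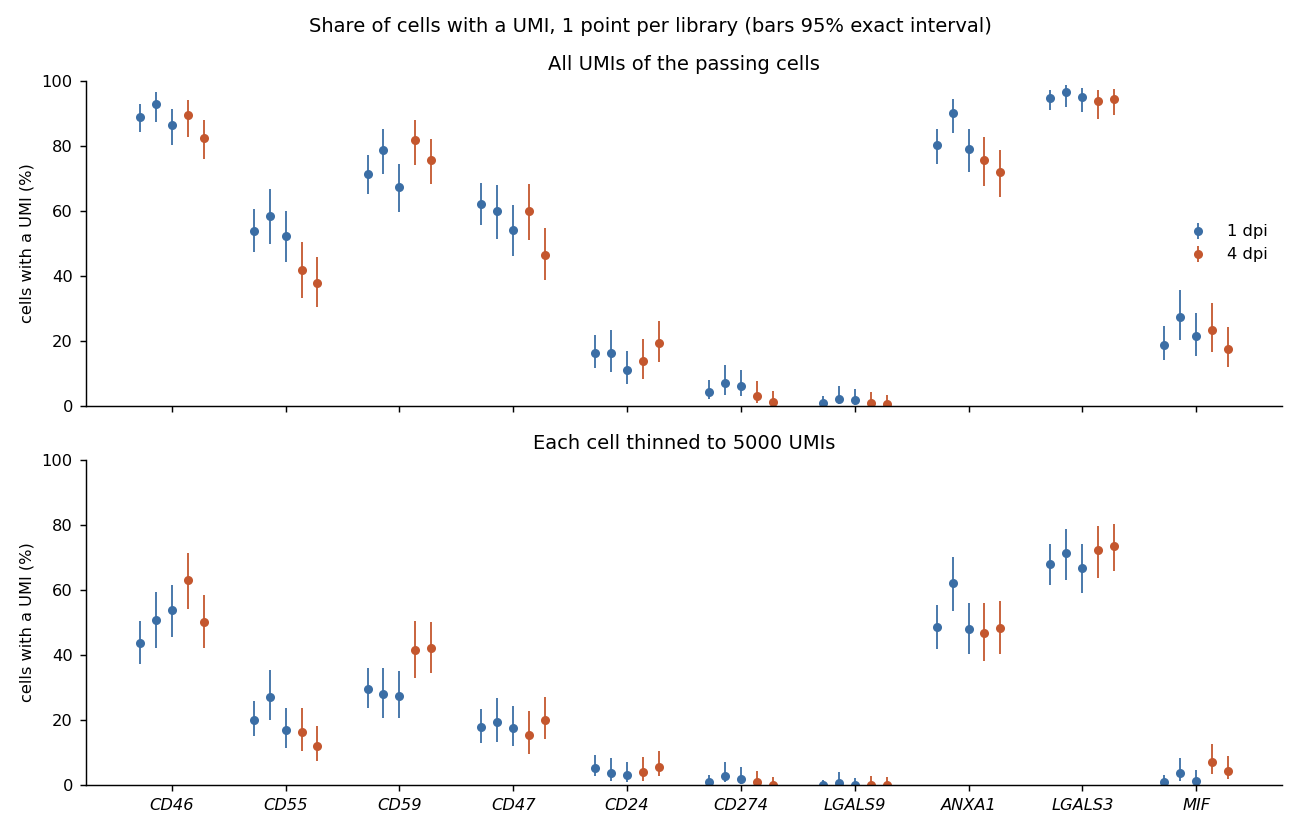
Share of cells with at least 1 UMI (%) of each gene in the 5 libraries, ordered 6, 7, 8, 10 and 11, at full depth (top) and with each cell thinned to 5000 UMIs (bottom); bars are exact 95% binomial intervals and cover counting error only. CD59 separates the time points after thinning (27.5% to 29.6% against 41.5% and 42.1%), and the CD55 shares are lower at 4 dpi in both panels.

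Other complement genes moved in both directions. Of 25 genes on the list, 11 were tested, 4 rose (CD46 and CD59 among them) and 3 fell, against 13.4% and 14.2% of all genes. SUSD4, a membrane inhibitor of complement, rose by 1.67 on the log2 scale, and clusterin (CLU), a secreted inhibitor of the terminal pathway, by 1.13. The 3 that fell were complement components: C3, the central protein of the cascade, by 2.76, and C1R and C1S, proteases of the classical pathway, by 2.08 and 1.69. C3 was at 4.15, 4.94 and 4.41 CPM at 1 dpi and at 0.252 and 1.04 CPM at 4 dpi, and SUSD4 at 2.01, 0.759 and 1.89 CPM and then at 6.29 and 3.90 CPM, so the changes of both rest on few UMIs. C1R was also low at 4 dpi, at 2.27 and 1.82 CPM. The list's median was -0.014. The 7 genes were called by edgeR with adjusted p between 7.99e-07 (CLU) and 0.011 (SUSD4).

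**Figure D3:**
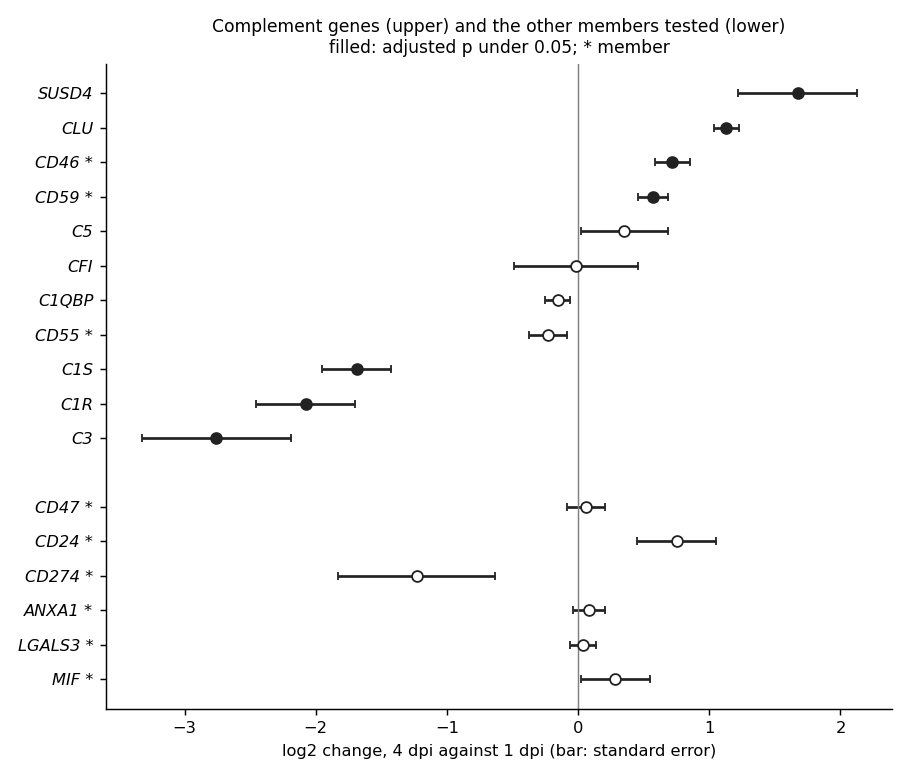
Log2 change from 1 to 4 dpi with its standard error (edgeR) for the tested complement genes (upper) and the other tested members (lower), with members marked *; filled points passed an adjusted p of 0.05. SUSD4, CLU, CD46 and CD59 lie on the right, C1S, C1R and C3 on the left, and the 6 members of the lower block are not called.

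CD55, CD59 and CD24 are held in the membrane by a glycosylphosphatidylinositol (GPI) anchor. Of 30 tested genes for making and attaching the anchor, 5 rose and 4 fell, which is near the background of 27.6% of all genes called. Their median log2 change was 0.27. The largest rises were in DPM3 (1.29), PIGQ (1.22) and PIGL (0.98), and PIGT and GPAA1, subunits of the transamidase that joins anchor and protein, rose by 0.48 and 0.59. PIGA, part of the enzyme of the first step, fell by 0.84, PIGG by 0.66 and PIGH by 0.44.

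Neither of the inhibitors of phagocytosis passed the test. CD47 was at 45.9, 41.2 and 38.2 CPM at 1 dpi and at 49.6 and 37.7 CPM at 4 dpi, so the 4 dpi libraries lay on either side of the 1 dpi range. Its log2 change was 0.058 (SE 0.15, edgeR adjusted p = 0.797), and the ratio of its share of all UMIs was 1.05, with a 95% counting interval of 0.921 to 1.2. CD24 was at 8.56, 7.40 and 4.83 CPM at 1 dpi and at 8.56 and 15.4 CPM at 4 dpi. Library 10 was level with the highest 1 dpi library, and only library 11 stood above. The log2 change was 0.75 (SE 0.30, edgeR adjusted p = 0.072), and it was 0.27 without library 11 and 1.11 without library 10, where it was called (edgeR adjusted p = 0.0167). Of 16 tested genes that act in restraint of phagocytosis, 1 rose (B2M, the light chain of MHC class I, 0.42) and none fell, against 27.6% of all genes called.

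The checkpoint ligands were rarely seen. CD274 had 13, 13 and 11 UMIs at 1 dpi and 5 and 2 at 4 dpi, that is 1.74, 2.47 and 2.31 CPM against 1.26 and 0.521 CPM. Both 4 dpi libraries were below all 1 dpi libraries, but the log2 change of -1.23 (SE 0.60) did not pass (edgeR adjusted p = 0.132) and was -0.76 without library 11 and -1.99 without library 10. The 4 dpi level was 0.431 of that at 1 dpi, with a 95% counting interval of 0.162 to 0.98. The share of cells with a UMI was 5.85% ± 1.35 and 2.14% ± 1.26. LGALS9 had 8 UMIs in all at 1 dpi and 2 at 4 dpi, too few to test; the ratio was 0.57 with an interval of 0.0589 to 2.86. Of 23 windows of 60 bases at its 3′ end, 3 also occur in LGALS9B or LGALS9C, so the counting could split its reads.

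None of the 3 released proteins passed the test over all cells. LGALS3 was at 282.3, 339.6 and 316.1 CPM at 1 dpi and at 319.4 and 321.7 CPM at 4 dpi, with both 4 dpi libraries inside the 1 dpi range. Its log2 change was 0.037 (SE 0.097, edgeR adjusted p = 0.808). ANXA1 was at 199.2, 220.97 and 219.3 CPM and then at 263.5 and 187.4 CPM, so the 4 dpi libraries lay on either side of the 1 dpi range. Its log2 change was 0.083 (SE 0.12, edgeR adjusted p = 0.647). MIF was at 7.22, 9.87 and 7.98 CPM and then at 11.8 and 8.33 CPM, a log2 change of 0.28 (SE 0.26, edgeR adjusted p = 0.45). Without library 10 it was 0.0062 and without library 11 it was 0.51. Of 23 windows at the 3′ end of MIF, 16 also lie in another annotated gene, ENSG00000251357, so reads of these genes may not be separable.

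Relatives and partners of these genes were tested as lists. Of 11 tested annexins and S100 partners, none rose and 5 fell, with a median of -0.24, where 14.2% of all genes tested fell. The formyl peptide receptors of that list were not among the genes tested. S100A11 fell by 0.94, ANXA3 by 0.79 and S100A10 by 0.51, while ANXA1 had the value given above. Among 6 tested galectins and galectin-binding genes, LGALS3BP, a secreted glycoprotein that binds galectin-3, rose by 0.54. In the MIF list, 2 of 6 tested genes rose, CXCR4 by 1.99 and CD44 by 0.65, both of which act in reception of MIF. CXCR4 was at 2.01, 2.85 and 1.47 CPM at 1 dpi and at 8.05 and 8.85 CPM at 4 dpi, so its change rests on few UMIs. Across all genes tested, 13.4% were called as higher.

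A sum over a library does not tell more UMIs in a cell from more cells at a high level. Cells were therefore clustered without the members and the other listed genes, and levels were summed per cluster and library. The clusters are named by number. Among their leading genes were AHNAK2, EMP1 and IGFBP1 in cluster 0, HES5, HES1 and EGR2 in cluster 1, PRSS2, PCDH19 and PHGR1 in cluster 2, TOP2A, CCNA2 and MKI67 (genes of dividing cells) in cluster 3, DHRS2, BHLHE41 and VGF in cluster 4, and PLAUR and PLAU in cluster 5. Clusters 1 and 5 were almost wholly of 1 dpi and held 0% and 1.24% (cluster 1) and 0.758% and 0.621% (cluster 5) of the cells of libraries 10 and 11. Cluster 2 held 5.70%, 2.11% and 9.82% of the cells at 1 dpi and 41.7% and 38.5% at 4 dpi. The differences between clusters below are descriptions, given in CPM of the cluster's own UMIs (not TMM-scaled) over sums of at least 10 cells.

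CD46 was at 348.96 and 449 CPM in cluster 2 at 4 dpi and at 255.1 and 372.2 there at 1 dpi (libraries 6 and 8). In cluster 3 it was at 186.3 to 302.1 at 1 dpi and at 248.4 and 381.8 at 4 dpi. Means in clusters 0, 1, 4 and 5 at 1 dpi were between 121.3 and 145.2. Cluster 2, more frequent at 4 dpi, thus had the highest mean CPM of CD46. Its cells also had the lowest median UMIs (18660) and genes (4651) of the clusters and the highest median mitochondrial share (14.9%). That share was 14.3% in cluster 3 and lowest in cluster 4 (7.22%). The part of depth and mitochondrial share in the cluster levels was not tested. CD55 was low in those clusters: it was at 7.89 to 23.4 in cluster 2 and at 14.4 to 24.5 in cluster 3, against 100.5 to 182.9 in cluster 5 and 62.8 to 80.5 in cluster 0. Cluster 4 in libraries 7 and 8 (20.8 and 26.4) and cluster 1 in library 6 (26.6) were near those low values. CD59 was highest in cluster 4, at 80.9 to 119.8 at 1 dpi and at 176.3 and 226.9 at 4 dpi, with overlap with other clusters at 1 dpi.

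CD47 was highest in cluster 3, at 52.6 to 64.8 at 1 dpi and 53.8 and 61.7 at 4 dpi, with cluster 2 overlapping, and lowest in cluster 4, at 21.5 to 36.5. ANXA1 was at 336.4 to 381.7 in cluster 0 at 1 dpi, above clusters 1, 2, 4 and 5 at that time (103.8 to 235.3), while cluster 3 reached 394 in library 8. LGALS3 was at 431 to 510 in cluster 0 and at 197.2 to 211.7 in cluster 1 at 1 dpi, without overlap. In cluster 4 it was at 239.5 to 451 at 1 dpi and at 512 and 536 at 4 dpi.

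**Figure D4:**
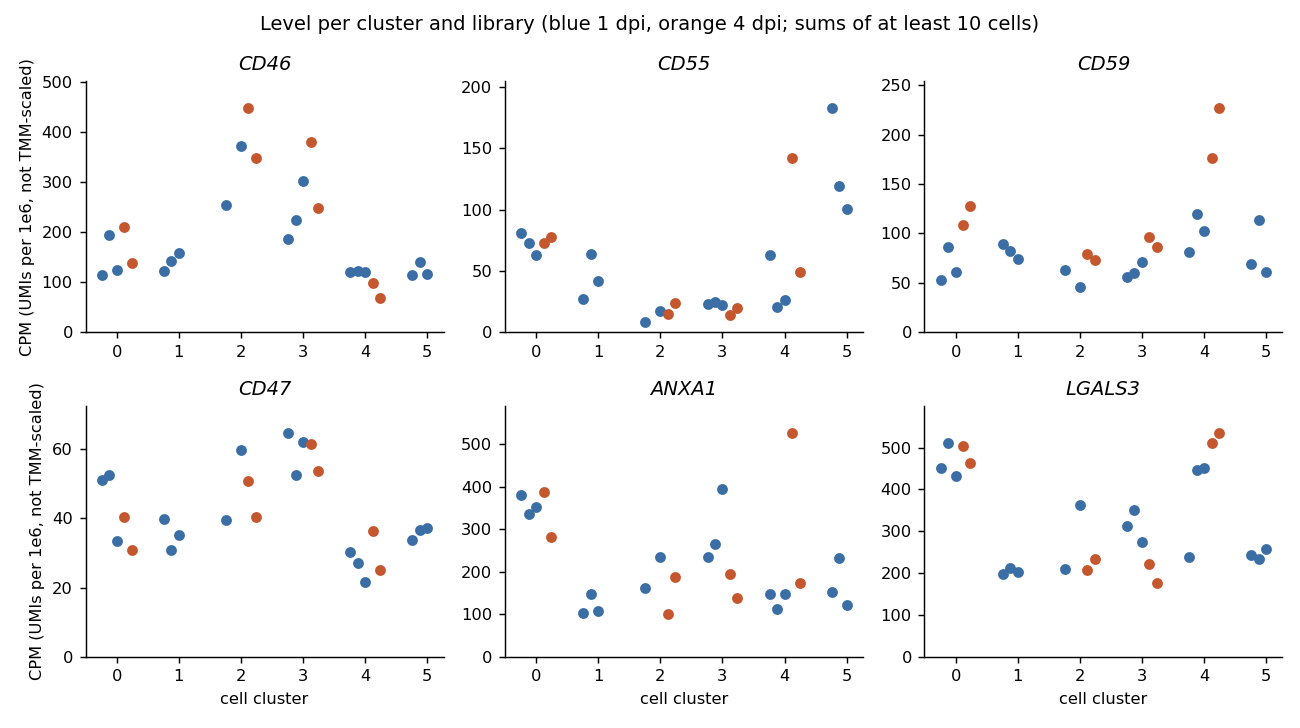
CPM (not TMM-scaled) of 6 members in clusters 0 to 5, 1 point per library with at least 10 cells in the cluster (blue 1 dpi, orange 4 dpi; linear axes from 0). CD46 is high in clusters 2 and 3 and CD55 is low in both, and the 4 dpi point of library 10 in cluster 4 stands apart for ANXA1 (528) and CD55 (142.2).

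Clusters 0, 3 and 4 held at least 10 cells in every library, so the time points were compared within each with the same edgeR test. The share of all genes called was 4.04%, 8.71% and 14.3%, and of the members 0 of 8, 2 of 8 and 3 of 7 were called. CD59 had positive changes in all 3, of 0.71, 0.56 and 0.94 on the log2 scale, and passed in cluster 4 (edgeR adjusted p = 0.00634) but not in clusters 0 (0.071) and 3 (0.101). In cluster 4 it was called in all but 1 of the fits that left out a library, the exception being without library 11 (0.76, edgeR adjusted p = 0.0881). CD46 had log2 changes of 0.12, 0.41 and -0.60, none of which passed. The difference of the time change between the 3 clusters was tested in 1 fit with library as a block, chosen after the changes within clusters had been seen, which called 7.45% of genes and, of the members, ANXA1, LGALS3 and CD46 (3 of 8).

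ANXA1 and LGALS3, which were not called over all cells, both fell within cluster 3. There, ANXA1 was at 235.01, 276.99 and 403 CPM at 1 dpi and at 195.04 and 137.3 CPM at 4 dpi. It fell by 0.84 on the log2 scale (SE 0.20, edgeR adjusted p = 0.00482). Leaving out library 11 ended the call (-0.62, edgeR adjusted p = 0.136). LGALS3 in cluster 3 was at 312.7, 365.7 and 279.3 CPM and then at 221.2 and 175.5 CPM. It fell by 0.69 (SE 0.17, edgeR adjusted p = 0.00713), and was not called without library 7 (-0.58) or library 11 (-0.54). Neither gene's time points overlapped in that cluster. Over all cells 54.7% of genes tested were without overlap, and the share within the cluster was not computed.

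In cluster 4, ANXA1 was at 155.1, 112.4 and 157.8 CPM at 1 dpi and at 525 and 170.5 CPM at 4 dpi, so the rise lay mostly in library 10. Its log2 change was 1.29 (SE 0.31, edgeR adjusted p = 0.00952) and 0.27 without library 10 (edgeR adjusted p = 0.555), and without library 7 it was 1.14 (edgeR adjusted p = 0.0518). CD24 in cluster 4 was at 4.74, 6.42 and 0 CPM and then at 14.5 and 28.6 CPM, or 8 UMIs against 35 in all. Its log2 change was 2.42 (SE 0.69, edgeR adjusted p = 0.0216). It was not called without library 8 (1.93) or library 11 (1.86). CD55 there had 1.24 (edgeR adjusted p = 0.0502), with library 10 at 141.5 CPM and library 11 at 48.5 CPM, and it was called without library 6 (1.95) or library 11 (1.82) but was 0.29 without library 10 (edgeR adjusted p = 0.74). CD46 in cluster 3 was called without library 11 (0.68) and was 0.063 without library 10 (edgeR adjusted p = 0.919). CD59 in cluster 0 was called without library 7 (0.93) and was 0.56 without library 11 (edgeR adjusted p = 0.383).

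**Figure D5:**
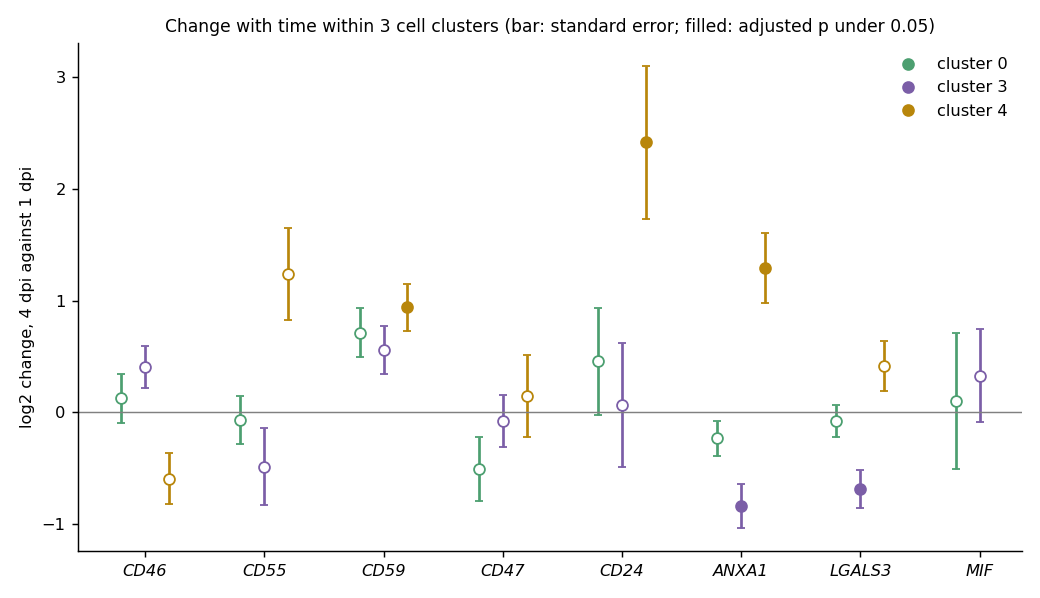
Log2 change from 1 to 4 dpi with its standard error within clusters 0 (green), 3 (purple) and 4 (gold) for the 8 members tested there; filled points passed an adjusted p of 0.05 in that cluster (edgeR). CD59 lies above 0 in all 3 clusters, and ANXA1 lies at -0.84 in cluster 3 and at 1.29 in cluster 4.

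Across cells of a library, 4 members with a UMI in at least 50% of the cells of every library were correlated with 3970 genes (Pearson's r of log UMIs per 10000 UMIs of the cell, mean of the 5 libraries). Cells of a library share depth and preparation, and r is given as a description. The 4 members' own r with the log of a cell's UMI total was between -0.071 and 0.13. With a cell's mitochondrial share, r was -0.20 for LGALS3 (down to -0.48 in a library) and -0.18 for CD59 (down to -0.33). It was 0.0885 for CD46 (from -0.0437 to 0.301) and 0.00372 for ANXA1 (from -0.284 to 0.227). The part of these in the values below was not tested. The median absolute r of a member over all genes compared was between 0.0475 (ANXA1) and 0.0711 (CD46). CD46 was most like PROX1, a homeobox transcription factor (0.42, from 0.39 to 0.51 over libraries), CBX3 (0.34) and NKD1 (0.33). ANXA1 was most like S100A10 (0.43), ANXA2 (0.37) and S100A11 (0.36), and LGALS3 was most like ANXA2 (0.34), ANXA5 (0.30) and LMNA (0.27). CD59 had lower values, with AMOTL2 at 0.29 and IFRD1 and ZNF292 at 0.27. Between members, ANXA1 and LGALS3 had 0.22, positive in every library, while CD46 and CD59, which both rose, had -0.15 (from -0.36 to 0.02).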

How the data were processed

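The authors took the well barcode and UMI from read 1, aligned read 2 to the human transcriptome with BWA (hg38 in the submitters' processing notes; its version is not given in the sources used) and deposited UMI counts per gene and well, raw and not normalized. Library totals are 4487175 to 7632953 human UMIs. All 5 libraries were mapped to a time point by their titles, and flow cells were read from the table names. ERCC rows were left out of totals and tests. Genes listed in all libraries and in at least 10 wells and cells with more than 2000 genes and under 25% mitochondrial UMIs were kept, after the authors' code. Wells received 1 sorted cell and no doublet caller was run.

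The sums of counts over each library's cells entered edgeR 4.0.16 (filterByExpr, TMM, quasi-likelihood, two-sided, Benjamini-Hochberg), in R 4.3.3. CPM are TMM-scaled except where stated. Clusters came from Seurat 5.3.0 (2000 variable genes, 15 components, resolution 0.5), without the members and listed genes. Intervals are exact (95%) and cover counting error only. Alternatives used DESeq2 1.42.0 and limma 3.58.1. Genes named are the members, the 3 largest called rises and falls per list, the 3 genes most correlated with a member and leading genes of clusters; other called genes of a list were named after their values were seen. The members and lists were chosen with earlier results of these data known. Positions are from GENCODE and promoters from RefSeq; all 10 members matched.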

Additional observations from a re-analysis of the deposited data

Results flagged for a closer look

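The change from 1 to 4 dpi differed between clusters 0, 3 and 4 for 3 members, by an edgeR interaction test with library as a block (10391 genes, 7.45% called), which was chosen after the changes within clusters had been seen. For ANXA1 (edgeR adjusted p = 8.28e-05) the log2 changes were -0.24, -0.84 and 1.29 in clusters 0, 3 and 4. The last is 0.27 without library 10. For LGALS3 (edgeR adjusted p = 0.0118) they were -0.083, -0.69 and 0.41, the last being 0.15 without library 6. For CD46 (edgeR adjusted p = 0.0445) they were 0.12, 0.41 and -0.60, although none of these passed within its own cluster. CD55 had an edgeR adjusted p of 0.0528, CD24 of 0.113 and CD59 of 0.629 in the same test.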

How the results depend on the processing

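Scaling by ERCC UMIs left 1 gene higher and 1 lower and 0 members higher (0 members and 2.76% of genes at unadjusted p under 0.05 in edgeR; 1695 and 1789 called with TMM). It shifted the median of all genes by -0.20. UMIs per ERCC UMI were 55.9 and 49.5 in libraries 8 and 11, of one flow cell, and 107.4 to 118.6 in the others, of the other flow cell. Flow cell was not a term in this fit. Thinning to 5000 UMIs gave 625 higher and 511 lower. With mitochondrial share below 15%, 4 members were higher, with CD24 (0.94) and ANXA1 (0.44) added; equal weights (limma) gave 1 member lower. CD24 was also called without a mitochondrial maximum (0.79), without library 10 (1.11) and outside cluster 2 (0.94). That last setting was chosen after seeing the data. All other settings kept each of these counts within 1.5 times, including leaving out each library.

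Directions turned as follows, none of them called. Over all cells, CD47 was -0.088 with ERCC scaling, -0.050 below 15%, -0.046 thinned, -0.15 (without library 10) to 0.24 with a library left out and -0.021 outside cluster 2. ANXA1 was -0.021 with ERCC scaling, -0.0054 thinned, -0.013 with equal weights and -0.18 (without library 10) to 0.30 with a library left out. LGALS3 was -0.16 with ERCC scaling, -0.020 without a mitochondrial maximum and -0.031 (without library 6) to 0.11 with a library left out. CD55 was 0.082 below 15% and 0.018 outside cluster 2, and CD274 was 0.090 with equal weights. Differences in shares, in percentage points, were 7.27 (CD46), 3.76 (MIF) and 4.13 (LGALS3) thinned, 0.302 (LGALS3) above 1000 genes, and, with a library left out, -12.1 to 1.14 (CD47), -0.853 to 4.77 (CD24) and -5.21 to 0.886 (MIF, 0.272 without library 7). Within clusters, with a library left out, CD46 ranged from -0.18 to 0.39, MIF from -0.28 to 0.42 and CD55 from -0.16 to 0.036 in cluster 0, CD24 from -0.74 to 0.65 and CD47 from -0.18 to 0.012 in cluster 3, and CD47 from -0.14 to 0.39 in cluster 4, where it was -0.17 at resolution 0.3. At another resolution the values are for the cluster that held most of these cells, which can include other cells. Resolution 0.3 gave 4 clusters. There CD46 (0.53) and CD59 (0.51) were called for cluster 3, and CD46 (-0.71), CD55 (1.18) and LGALS3 (0.97) for cluster 4. At resolution 0.8, CD55 (1.34) was called for cluster 4. The cause was not tested.

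No paired analysis was possible because the groups share no replicate numbers. With flow cell as a term, 1731 genes were higher and 1858 lower, and CD46 (0.73) and CD59 (0.58) stayed called (edgeR adjusted p = 0.000448 and 0.00153). With 3 against 2 libraries no permutation p can fall below 0.1, and CD274 and LGALS9 are limited by their few UMIs.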

Other observations

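Signals that invite or bridge engulfment moved both ways between 1 and 4 dpi. Of 20 tested genes, 3 rose and 2 fell by edgeR, which is near the background of 27.6% of all genes called. GAS6, which bridges phosphatidylserine to TAM receptors on phagocytes, rose from 46.7 to 48.3 CPM at 1 dpi to 61.2 and 83.04 CPM at 4 dpi (log2 change 0.60). LPCAT1, an acyltransferase of phospholipids, rose by 0.57, and HMGB1, a nuclear protein released by dying cells, by 0.45. ANO6, a scramblase that exposes phosphatidylserine, fell by 0.76, and ANXA2 by 0.28.

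Of 21 tested checkpoint ligands and enzymes, 4 rose and 2 fell, which is near the background of 27.6% of all genes called. TNFSF9, the ligand of 4-1BB, rose by 1.33, BTN3A1 by 0.91 and HLA-E, a ligand of the inhibitory receptor NKG2A, by 0.56. TNFSF9 was at 2.27, 4.18 and 3.57 CPM at 1 dpi and at 7.30 and 9.11 CPM at 4 dpi, so its change rests on few UMIs. CMTM6, which holds PD-L1 at the cell surface, rose by 0.30, while CD274 itself was not called. TGFB1 fell by 1.13 and ARG2 by 0.81. Among the markers, EPCAM rose by 0.25, CDH1 fell by 0.73, KRT18 by 0.42 and KRT19 by 0.38, and of 4 leukocyte markers tested ITGAM fell by 2.53 and FCER1G by 1.64 on the log2 scale. FCER1G had 17, 16, 16, 3 and 4 UMIs in libraries 6, 7, 8, 10 and 11.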
